A study of Mus musculus with 14 samples.

Results

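The mitotic spindle and checkpoint genes described here were 52 named genes of cell division, taken as the rows with those names among the 41053 gene rows of each of 2 count tables. Other than Cenpe, which encodes a kinesin motor of the kinetochore, kinesins were not among them, and neither were cohesin and condensin subunits. All 52 rows were found, and all 52 passed the filter on low counts in every comparison. They comprised 11 kinases, cyclins and phosphatases of mitotic entry, 2 transcription factors, 7 kinetochore genes, 6 spindle checkpoint genes, 4 genes of the chromosomal passenger complex, 4 genes of the anaphase-promoting complex and separase, 8 spindle assembly genes, 6 cytokinesis genes, and 4 genes of mitotic chromosomes or of other mitotic roles.

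RNA sequencing counts were available for 14 libraries from spleens of C57BL/6 mice, in 4 groups. Germinal centre (GC) B cells had the genotype TET2 Knock-Out (KO, 4 libraries) or TET2 Wild-Type (WT, 3 libraries). Lymphoma B cells carried a short hairpin RNA against Tet2 (shTet2, labelled TET2 Knock-Down, 2 libraries) or were controls with the genotype TET2 Wild-Type (5 libraries). The TET2 protein turns methylcytosine of DNA into oxidised forms. The labels give no age, no immunisation, no Cre or promoter for the knock-out and no driver gene for the lymphomas, and do not say whether replicates were separate animals, so p-values measure only the spread between these libraries.

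Mitosis runs on a short burst of gene expression in late cell cycle. Cyclin B with the kinase CDK1 drives entry, Polo-like and Aurora kinases build the spindle, kinetochores bind chromosomes to microtubules, and the spindle checkpoint holds the anaphase-promoting complex until every chromosome is attached. Separase then frees the sister chromatids and the cytokinesis proteins divide the cell. GC B cells are among the fastest dividing cells of the body, and the transcripts of these genes are commonly read as a sign of cells in division. In bulk RNA, fewer dividing cells and less RNA per dividing cell cannot be told apart.

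The libraries held 27191862 to 30434184 counts in GC B cells and 6691167 to 18598386 counts in lymphoma. Rows taken to hold ribosomal and other structural RNA were picked by hand from their names, and include the protein-coding gene Lars2 and Mir6236. They took 0.370% to 1.32% of the counts in GC B cells, 45.0% and 54.0% in the shTet2 libraries, and 57.5% to 80.7% in the lymphoma controls. The 52 genes therefore rested on 267473 to 362542 counts per GC library, 16143 and 19623 counts per shTet2 library, and 958 to 5092 counts per lymphoma control. Control replicate 2 stood apart with 958 counts, 27 genes under 10 counts and 1 gene, Spc24, at 0. Tet2 itself was not lower in KO than in WT GC B cells (log2 fold change 0.04, SE 0.13), but the labels do not say which part of the gene was deleted, so its summed exon count does not check the labels. In lymphoma Tet2 had 86.0 and 79.3 CPM in the shTet2 libraries and 89.0 to 105 CPM in the controls, without overlap, at an edgeR log2 fold change of -0.21 with SE 0.10, which missed the threshold (adjusted p = 0.295). B-cell markers were present in all groups. The 10 germinal centre markers summed to 1770 to 2140 CPM in GC B cells, 313 and 377 CPM in shTet2 lymphoma, and 193 to 243 CPM in control lymphoma, where Gcnt3 was at 0.

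Levels are given in CPM, counts scaled to the size of the library, from 1 TMM scaling over all 14 libraries, and per kilobase of summed exon length where genes are compared. The summed level of the 52 genes was 7927, 7590, 7642 and 6730 CPM in KO replicates 2, 3, 4 and 5, and 6946, 7609 and 6232 CPM in WT replicates 1, 3 and 4. It was 1318 and 2059 CPM in shTet2 replicates 1 and 2, and 508.7, 349.9, 417.7, 631.4 and 679.6 CPM in control replicates 1 to 5. The KO and WT ranges overlapped, every lymphoma library lay below every GC library, and both shTet2 libraries lay above all 5 controls. In means this was 1.08 times the WT level in KO, 0.244 times in shTet2 lymphoma and 0.0747 times in control lymphoma. The last value was 0.0990 under upper-quartile scaling. Overlap between libraries was read from these CPM, whereas the separate GC and lymphoma tests were scaled within their own libraries. For KO against WT the median log2 fold change of the 52 genes was 0.05 in the separate fit. In 1 model of all 14 libraries it was 0.10.

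Per kilobase, Mki67, which encodes the antigen Ki-67 that coats mitotic chromosomes, was the highest of the 52 genes in WT GC B cells, at 103 CPM per kb. The B-type cyclin Ccnb2 followed at 101 CPM per kb and Cdc20, the activator of the anaphase-promoting complex, at 93.6. Cit, the citron kinase of cytokinesis, was the lowest at 3.71 CPM per kb. The order of the 52 genes per kb was nearly the same in KO and WT, with a Pearson correlation of log2 levels of 0.995 across genes. Between WT GC B cells and control lymphoma the correlation was 0.710, and between control and shTet2 lymphoma it was 0.916. These are descriptions over 52 genes that share their libraries, not tests. In control lymphoma the entry phosphatase Cdc25b ranked highest, at 13.2 CPM per kb, and Ccnb1, the main partner of CDK1, lowest, at 0.341.

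The first comparison asked how the loss of TET2 changed these genes in GC B cells. None of the 52 genes passed edgeR's quasi-likelihood test at an adjusted p under 0.05, where 6.49% of the 13600 genes tested passed, 1.92% as higher and 4.57% as lower. At an unadjusted p under 0.05 there were 9 genes, or 17.3%, beside 19.9% of all genes tested, DESeq2 called 1 gene, Zwilch, and limma-voom called 0. The log2 fold changes ran from -0.31 to 0.30 with a median of 0.05, beside 0.01 over all genes tested, and 34 were positive and 18 negative. Without WT replicate 4 the median was -0.01 with 26 of 52 positive, without KO replicate 2 it was 0.02 with 27 positive, and without WT replicate 3 it was 0.10 with 44 positive. In 9 genes every KO library lay above every WT library, a share of the members to be read beside 11.9% of all genes, and in none did every KO library lie below, beside 8.3% of all genes. Myeloid markers summed to 19.2 to 21.1 CPM in KO and 33.2 to 44.6 CPM in WT, where Mpo was at 0, with 7 of 8 tested lower in KO. Of 6 T-cell markers tested Lck was lower, at 76.0 to 92.5 CPM against 104 to 132 CPM, and Thy1 was higher. Prf1 was lower among 3 NK and platelet markers tested. Tfrc was higher among 7 erythroid markers tested, of which the other 6 had negative values and did not pass. No B-cell, germinal centre or plasma cell marker passed. The part of all these markers in these values was not tested. Leaving out KO replicate 2 gave 1 gene higher and 1 lower, and leaving out KO replicate 4 gave 1 higher.

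The 6 genes with the smallest p are given with their values. Zwilch, a subunit of the complex that brings dynein and Mad1 to kinetochores, had 45.6, 43.6, 35.8 and 44.2 CPM in KO replicates 2, 3, 4 and 5 and 32.7, 31.4 and 35.2 CPM in WT replicates 1, 3 and 4. Its groups did not overlap, although KO replicate 4 came within 1 CPM of WT replicate 4, and its log2 fold change was 0.30 with SE 0.10 (edgeR adjusted p = 0.0804). Melk, a kinase of dividing cells, had 36.3, 26.6, 32.1 and 27.6 CPM in KO and 34.8, 38.5 and 36.7 CPM in WT, with KO replicate 2 inside the WT range, and a log2 fold change of -0.31 with SE 0.11 (adjusted p = 0.0991). Cdc25b, a phosphatase that activates CDK1, had 402, 422, 388 and 367 CPM in KO and 322, 357 and 290 CPM in WT. All 4 KO libraries lay above the 3 WT libraries, at a log2 fold change of 0.24 with SE 0.09 (adjusted p = 0.135).

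Foxm1, the transcription factor that drives many G2 and mitosis genes, had 119.5, 146, 122 and 119.9 CPM in KO and 106, 113 and 92.2 CPM in WT. Its KO libraries were all above WT, KO replicate 3 most so, at a log2 fold change of 0.24 with SE 0.10 (adjusted p = 0.171). Incenp, the scaffold of the chromosomal passenger complex, had 278, 284, 268 and 247 CPM in KO and 224, 238 and 215 CPM in WT, again without overlap, with a log2 fold change of 0.20, SE 0.08 and adjusted p = 0.171. For Cit the values were 57.0, 84.4, 71.6 and 73.8 CPM in KO and 58.0, 60.0 and 53.3 CPM in WT, and KO replicate 2 fell among the WT libraries (log2 fold change 0.28, SE 0.11, adjusted p = 0.175). No difference among these 6 genes passed the adjusted threshold.

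The genes best known as marks of mitosis lay close together in KO and WT. Plk1, the Polo-like kinase of spindle assembly and cytokinesis, had 138, 132, 134 and 129.6 CPM in KO and 123, 132 and 123 CPM in WT (log2 fold change 0.03, SE 0.07). Top2a, the topoisomerase that untangles sister DNA, had 799.6, 758, 738 and 624 CPM in KO and 724, 788 and 608 CPM in WT, and Mki67 had 1053, 1267, 1173 and 934 CPM in KO and 1011, 1262 and 843 CPM in WT. In all 3 genes the groups overlapped, and the range between libraries of 1 genotype exceeded the difference of the means.

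Among the entry genes, Cdk1 had 184, 139.8, 151 and 137 CPM in KO and 137, 144 and 137 CPM in WT, with KO replicate 2 above the rest. Ccnb1 had 43.9, 37.2, 36.7 and 41.7 CPM in KO and 35.1, 33.5 and 32.9 CPM in WT. Its groups did not overlap and its log2 fold change of 0.18 had an SE of 0.09 (edgeR adjusted p = 0.265). Aurka, the centrosomal Aurora kinase, had 102, 91.1, 88.4 and 78.6 CPM in KO and 74.0, 78.6 and 73.4 CPM in WT, where KO replicate 5 fell just inside the WT range. For Aurkb, the kinase of the passenger complex, the values were 138, 121, 129 and 114 CPM in KO and 115, 124 and 107 CPM in WT, which overlapped.

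Cdc20 had 216, 189, 208 and 196 CPM in KO and 176, 179 and 169 CPM in WT, with every KO library above WT. Bub1b, the checkpoint protein BubR1, had 192, 182, 188 and 163 CPM in KO and 179, 200.2 and 161 CPM in WT, and overlapped throughout. Libraries of 1 genotype also differed in their common level: 44 of the 52 genes were above their group mean in KO replicate 2 and 46 in WT replicate 3, against 3 in KO replicate 5 and 5 in WT replicate 4. Over the role groups the median log2 fold changes lay between 0.00, for spindle assembly, and 0.13, for cytokinesis.

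Control lymphoma differed from WT GC B cells in every one of the genes. All 52 were lower in the lymphoma at an edgeR adjusted p under 0.05, beside 40.4% of the 15441 genes tested that were lower and 40.2% that were higher, and in all 52 every control lymphoma library lay below every WT library, beside 38.5% of genes that lay below and 36% that lay above. The log2 fold changes ran from -5.96 for Spc24, a subunit of the NDC80 complex, to -2.48 for Aspm, a spindle pole protein, with a median of -4.05 beside -0.03 over all genes. Cell kind and count table cannot be told apart in this comparison. Markers of other cell types differed too. All 9 germinal centre markers tested were lower in control lymphoma. Of 10 T-cell markers 9 were higher and 1, Lck, was lower, and since Lck held most of the level in WT the list summed to 26.3 to 57.8 CPM in control lymphoma and 108 to 136 CPM in WT. All 5 tested NK and platelet markers were higher, with sums of 7.47 to 10.7 CPM against 1.91 to 2.57 CPM, where Gp9 and Ppbp were at 0 in WT and Pf4 was at 0 in control lymphoma. Of 11 tested myeloid markers 4 were higher (Lyz2, Itgam, S100a8 and S100a9), with sums of 56.3 to 91.1 CPM against 33.2 to 44.6 CPM. Of the 7 tested markers each of plasma cells and erythroid cells 5 were lower and 1 was higher. The part of these markers in the result was not tested. Against the main scaling, the median of all genes moved by 0.14 with RLE scaling, 0.41 with upper-quartile scaling and 0.13 without the ribosomal RNA rows. The median of the 52 genes was then -3.91, -3.64 and -4.10, and all 52 remained lower.

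The smallest p belonged to Cdc20, which had 176.5, 179.4 and 168.7 CPM in WT GC B cells and 3.12, 2.92, 4.18, 5.48 and 5.07 CPM in control lymphoma, a log2 fold change of -5.32 with SE 0.13 (adjusted p = 3.15e-17). Plk1 followed at -5.43 with SE 0.13 (adjusted p = 3.15e-17), which is a level 43-fold lower. Next came Cep55, which recruits the abscission machinery to the midbody, at -4.82 with SE 0.14 (adjusted p = 5.36e-16). All 3 lay below the median of -4.05.

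Cenpa, the histone H3 variant that marks centromeres, fell less. It had 126, 115 and 120.4 CPM in WT GC B cells and 14.04, 13.2, 14.5, 13.2 and 15.1 CPM in control lymphoma, with little spread in either group, and its log2 fold change was -3.10 with SE 0.09 (adjusted p = 5.36e-16). Ccnb2 changed by -5.05 (SE 0.15, adjusted p = 7.62e-16), Incenp by -3.63 (SE 0.12, adjusted p = 1.39e-15) and Aurkb by -4.40 (SE 0.15, adjusted p = 1.98e-15). Within the passenger complex the scaffold Incenp was at 0.0792 times its WT mean and the kinase Aurkb at 0.0463 times, a difference that was not tested.

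Nek2, a centrosome-separating kinase, had 157, 150.1, 163 and 143 CPM in KO GC B cells, 143, 143 and 121 CPM in WT and 4.88, 5.11, 2.82, 4.83 and 7.34 CPM in control lymphoma, at a log2 fold change of -4.80 from WT (SE 0.16, adjusted p = 2.67e-15). Aurka changed by -3.94 (SE 0.14, adjusted p = 5.97e-15). The transcription factor Mybl2, or B-Myb, had 51.8, 59.3, 55.8 and 54.5 CPM in KO, 51.8, 62.2 and 56.1 CPM in WT and 2.93, 1.83, 2.36, 3.78 and 3.20 CPM in control lymphoma, a change from WT of -4.28 (SE 0.16, adjusted p = 7.01e-15). Each of the 3 lay far outside the spread between its libraries.

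Cdca8, or borealin, of the passenger complex had 204, 180.5, 196 and 174 CPM in KO, 165, 170 and 168 CPM in WT and 3.90, 3.65, 2.82, 6.52 and 6.27 CPM in control lymphoma (log2 fold change from WT -5.16, SE 0.17, adjusted p = 1.24e-14). Bub1b changed by -3.99 (SE 0.15, adjusted p = 1.85e-14) and the kinetochore motor Cenpe by -3.22 (SE 0.13, adjusted p = 2.59e-14). The checkpoint protein Mad2l1, or MAD2, had 118, 90.9, 119 and 94.9 CPM in KO, 108, 116 and 103 CPM in WT, 14.9 and 20.6 CPM in shTet2 lymphoma and 12.7, 8.04, 8.64, 12.7 and 11.6 CPM in control lymphoma (log2 fold change of the controls from WT -3.33, SE 0.14, adjusted p = 5.81e-14). The other 38 genes fell by values between those of Spc24 and Aspm. By role the median ran from -4.80 for the entry genes to -3.00 for the cytokinesis genes.

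The size of the fall moved with gene length. Across the 52 genes the log2 fold change rose with log length, with a Pearson correlation of 0.57 and a Spearman correlation of 0.51, where all 15441 genes gave -0.13 and 0.09. The 17 shortest genes, of 1349 to 2866 bases, had a median of -4.82, and the 17 longest, of 5177 to 15387 bases, -3.38. All genes in the same length ranges had medians of -0.62 and 0.49. The part of length in these values was not tested. The shTet2 response showed no such order, with medians of 1.74 and 1.67 in the same short and long genes and a Pearson correlation of 0.14.

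**Figure D1:**
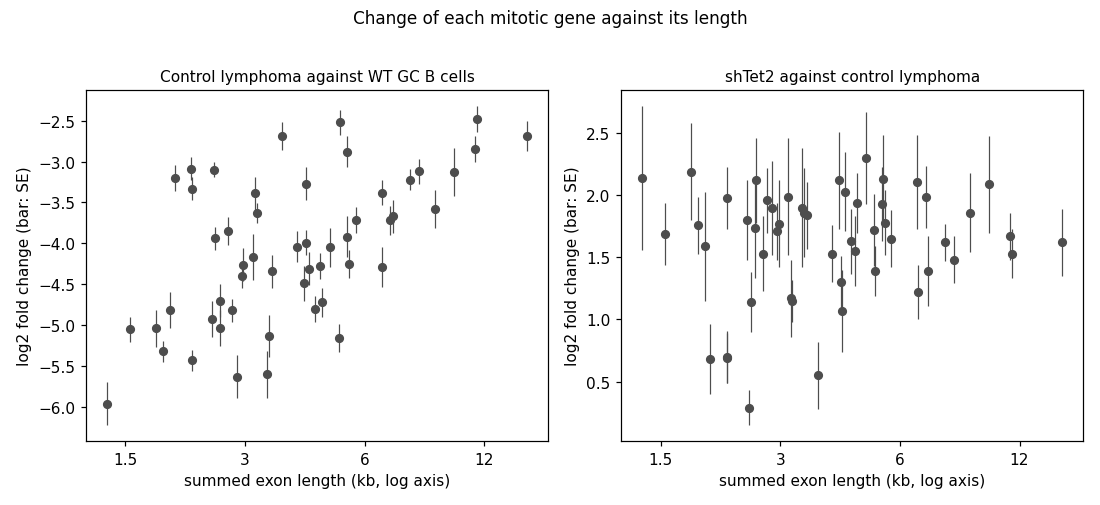
Log2 fold change of each of the 52 genes with its SE against the summed exon length in kb on a log axis, for control lymphoma against WT GC B cells (left) and for shTet2 against control lymphoma (right). On the left short genes lie lower, with a Pearson correlation of 0.57, and on the right the correlation is 0.14.

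In lymphoma the mitotic genes were higher with the hairpin against Tet2. Of the 52 genes, 39 rose at an edgeR adjusted p under 0.05 and 0 fell, where 2.58% of the 12797 genes tested passed, 1.84% as higher and 0.742% as lower. The log2 fold change was positive in all 52, from 0.29 for Cenpa to 2.3 for Ttk, the kinase MPS1 at the head of the checkpoint, with a median of 1.72 beside 0.00 over all genes. In 51 genes both shTet2 libraries lay above all 5 controls, beside 12.5% of all genes, the exception being Cdc25b, and in none did they lie below all controls, beside 8.52%. A log2 fold change of at least 1 was reached by 47 of the 52 genes, beside 3.47% of all genes. The count rests on 2 shTet2 libraries. Without shTet2 replicate 2 the median log2 fold change of the 52 genes was 1.36. Without 1 control at a time the count was 26 to 38, lowest without control replicate 3. Over all genes the 235 called as higher then became 82 to 183.

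**Figure D2:**
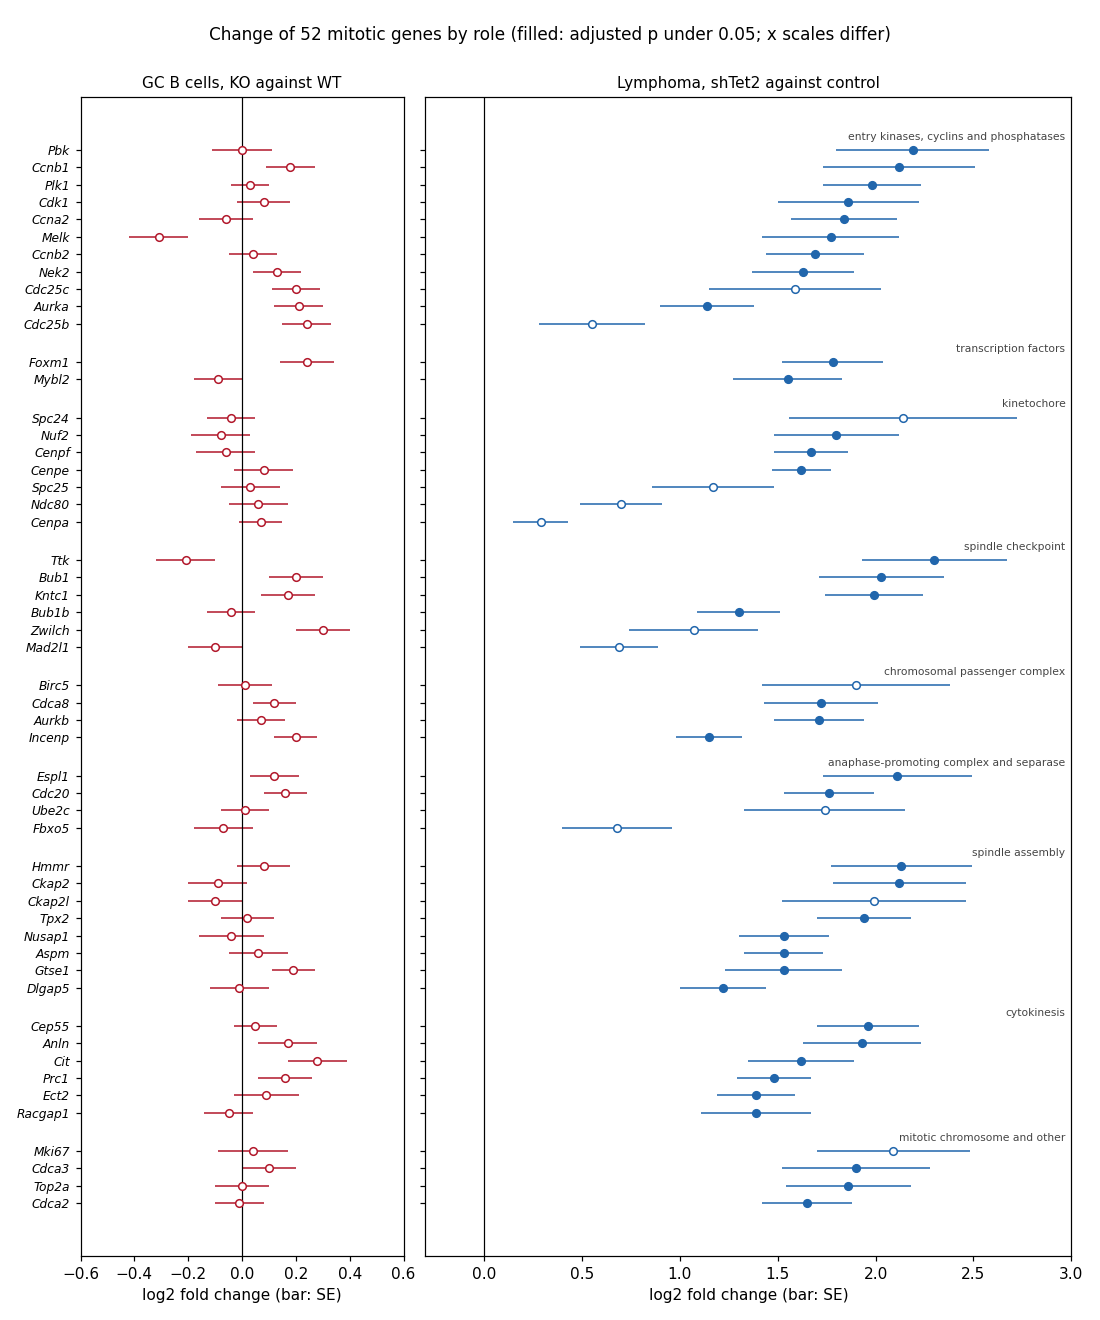
Log2 fold change with its SE (bars) for each of the 52 genes by role, for KO against WT GC B cells (left, 4 and 3 libraries) and shTet2 against control lymphoma (right, 2 and 5 libraries), with filled points at an adjusted p under 0.05 and different scales on the x axes. On the left no point is filled and values lie between -0.31 and 0.30, and on the right all values are above 0 and 39 points are filled.

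Other measurements moved with this difference. The 2 shTet2 libraries had the lowest shares of ribosomal RNA rows among the lymphomas, 54.0% and 45.0% against 57.5% to 80.7%. Control replicate 1, at 57.5%, had a summed level of 508.7 CPM, and shTet2 replicate 1, at 54.0%, had 1318 CPM. Without the ribosomal RNA rows 39 genes still rose, and with all 7 lymphoma libraries thinned to 1525883 counts outside those rows, 33 of 51 genes tested rose. Of the 10 germinal centre markers 8 were tested and 3 were higher with shTet2 (S1pr2, Fas and Neil1), with sums of 313 and 377 CPM against 193 to 243 CPM. Plasma cell markers summed to 843 and 625 CPM in shTet2 replicates 1 and 2 against 385 to 536 CPM, with Prdm1 and Xbp1 higher among 6 tested. B-cell markers summed to 10300 and 10200 CPM in shTet2 replicates 1 and 2 against 7530 to 8550 CPM, with Ighm alone passing as higher among 9 tested. Without Ighm the other 8 summed to 4329 and 3985 CPM against 4346 to 4669 CPM. Of the 9 markers 6 had negative values, and Cd79a at -0.48 (edgeR adjusted p = 0.0738) and Ebf1 at -0.71 (adjusted p = 0.145) lay below all controls without passing. Myeloid markers summed to 57.0 and 193 CPM against 56.3 to 91.1 CPM, with 0 of 10 tested passing and Mpo at 0 in the controls. In shTet2 replicate 2 Itgam had 84.0 CPM against 7.61 to 16.4 CPM in the controls. Emr1 had 14.1 and 34.5 CPM with shTet2 and lay above all controls, at 4.02 to 11.9 CPM. T-cell markers summed to 42.2 and 74.2 CPM against 26.3 to 57.8 CPM, with 0 of 9 tested passing, although Lck, Cd4, Thy1 and Cd3e lay above all controls. Erythroid markers summed to 53.7 and 73.1 CPM against 31.0 to 51.1 CPM, with 0 of 3 tested genes passing. The part of these markers in the result was not tested.

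**Figure D3:**
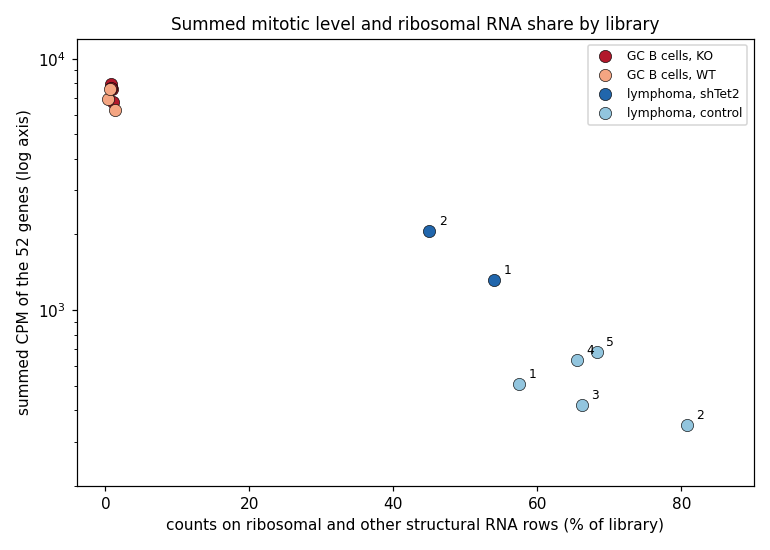
Summed CPM of the 52 genes on a log axis against the percentage of counts on ribosomal and other structural RNA rows, 1 point per library, with replicate numbers beside the lymphoma libraries. GC B-cell libraries lie at 6232 to 7927 CPM and shares of 0.370% to 1.32%, the 2 shTet2 libraries at 1318 and 2059 CPM, and the 5 controls at 349.9 to 679.6 CPM.

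Of the 11 entry genes 9 rose, with a median log2 fold change of 1.77. Plk1 had 9.72 and 13.96 CPM in shTet2 replicates 1 and 2 and 2.73, 2.56, 2.18, 3.52 and 3.60 CPM in control replicates 1 to 5. The lower shTet2 library was 2.70 times the highest control, and the log2 fold change was 1.98 with SE 0.25 (edgeR adjusted p = 0.00397). Ccnb2 had 13.2 and 17.5 CPM in shTet2 lymphoma and 5.27, 2.56, 3.46, 5.61 and 5.87 CPM in the controls, a log2 fold change of 1.69 with SE 0.25 (adjusted p = 0.00671). Even so, both genes stayed far below their GC levels, at 0.0940 and 0.0985 times the WT mean.

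Cdk1 rose from 3.90, 2.19, 3.0, 4.04 and 6.01 CPM in the controls to 8.49 and 20.8 CPM with shTet2, where replicate 2 was the higher. Ccnb1 had 4.90 and 8.50 CPM with shTet2 and 1.95, 0.365, 0.909, 1.83 and 2.13 CPM in the controls, of which control replicate 2 was lowest. Aurka had 8.66 and 13.3 CPM with shTet2 and 4.88, 3.65, 4.0, 6.26 and 5.34 CPM in the controls, the smallest rise among the 9 entry genes that passed. None of the 3 overlapped between groups.

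Melk had 5.80 and 7.66 CPM with shTet2 and 2.54, 1.46, 1.0, 3.0 and 1.74 CPM in the controls, and Nek2 had 14.8 and 16.3 CPM with shTet2 and 4.88, 5.11, 2.82, 4.83 and 7.34 CPM in the controls. Both rose without overlap. Pbk, Ccna2 and the genes named above made up the 9, and the CDK1-activating phosphatases Cdc25c and Cdc25b did not pass. For Cdc25b the groups overlapped, with 58.8 and 88.9 CPM in shTet2 lymphoma and 37.3, 36.9, 44.6, 65.9 and 61.7 CPM in the controls (log2 fold change 0.55, SE 0.27, adjusted p = 0.322).

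**Figure D4:**
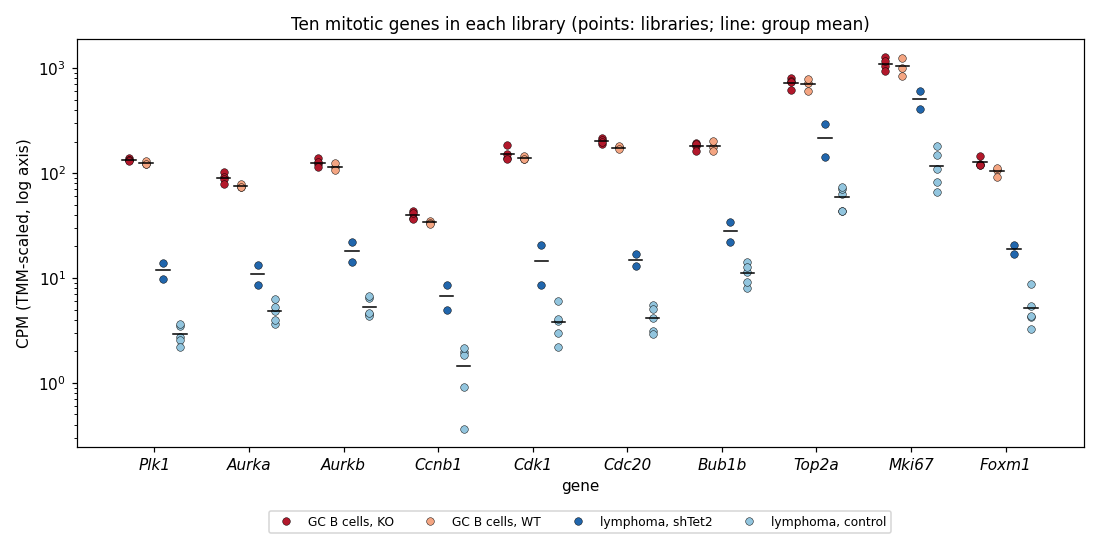
Level in CPM on a log axis of 10 mitotic genes in each of the 14 libraries, with the group mean as a line. For each gene the KO and WT libraries lie near each other at the top, and the 2 shTet2 libraries lie between them and the 5 controls.

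Both transcription factors rose. Foxm1 had 17.1 and 20.5 CPM with shTet2 and 4.29, 3.29, 4.37, 5.35 and 8.81 CPM in the controls, of which control replicate 5 was the highest, and Mybl2 had 6.45 and 10.8 CPM with shTet2 and 2.93, 1.83, 2.36, 3.78 and 3.20 CPM in the controls. Foxm1 rose by 1.78 on the log2 scale with SE 0.26 (edgeR adjusted p = 0.00691) and Mybl2 by 1.55 with SE 0.28 (adjusted p = 0.0175).

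Of the 7 kinetochore genes 3 rose. Cenpe, the motor that moves chromosomes to the spindle equator, had the smallest p of the 52 genes, with 48.4 and 54.1 CPM in shTet2 lymphoma and 15.8, 13.5, 14.2, 17.2 and 20.8 CPM in the controls (log2 fold change 1.62, SE 0.15, adjusted p = 0.000571). Cenpf, a large outer kinetochore protein, had 37.7 and 50.4 CPM with shTet2 and 13.1, 9.86, 10.9, 16.4 and 17.1 CPM in the controls, and 101, 104, 102 and 87.9 CPM in KO and 105, 115 and 77.8 CPM in WT GC B cells. Its log2 fold change in lymphoma was 1.67 with SE 0.19 (adjusted p = 0.00336). Nuf2 was the other gene that rose. Its partners in the NDC80 complex did not pass: Ndc80 at 0.70 (SE 0.21), Spc25 at 1.17 (SE 0.31) and Spc24 at 2.14 (SE 0.58). Spc24 had 3.43 and 4.41 CPM with shTet2 and 0 to 1.74 CPM in the controls, so its large fold change rested on few counts.

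Cenpa was the gene that differed least in lymphoma. It had 15.8 and 19.0 CPM in shTet2 lymphoma and 14.04, 13.2, 14.5, 13.2 and 15.1 CPM in the controls, 2 groups that did not overlap but lay close together (log2 fold change 0.29, SE 0.14, adjusted p = 0.302). Cenpa had 145, 122, 126 and 131 CPM in KO GC B cells.

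Of the 6 checkpoint genes 4 rose, namely Ttk, Bub1, Kntc1 and Bub1b. Kntc1, which works in 1 complex with Zwilch, had 13.8 and 26.9 CPM with shTet2 and 5.07, 3.65, 4.37, 6.26 and 5.34 CPM in the controls (log2 fold change 1.99, SE 0.25, adjusted p = 0.00397). Ttk had 7.43 and 14.4 CPM with shTet2 and 2.15, 0.365, 1.82, 2.74 and 2.94 CPM in the controls, where control replicate 2 was lowest. Bub1b had 22.2 and 34.1 CPM with shTet2 and 11.3, 8.04, 9.09, 14.2 and 12.8 CPM in the controls. The groups were separate in each, and shTet2 replicate 2 was the highest library in all 3.

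Zwilch itself did not pass, with 4.41 and 10.3 CPM with shTet2 and 4.29, 2.19, 2.91, 3.52 and 3.87 CPM in the controls (log2 fold change 1.07, SE 0.33). Its shTet2 replicate 1 was barely above control replicate 1. Mad2l1 did not pass either, at 0.69 with SE 0.20 (adjusted p = 0.0963).

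Of the 4 genes of the passenger complex 3 rose. Aurkb had 14.1 and 22.2 CPM with shTet2 and 4.49, 4.38, 4.64, 6.39 and 6.81 CPM in the controls (log2 fold change 1.71, SE 0.23, adjusted p = 0.00418). Incenp had 37.6 and 44.4 CPM with shTet2 and 21.6, 12.1, 16.5, 18.4 and 20.9 CPM in the controls, a smaller rise of 1.15 with SE 0.17 (adjusted p = 0.00628). Cdca8 had 12.7 and 18.8 CPM with shTet2. Birc5, or survivin, was 1.90 higher with SE 0.48 and did not pass (adjusted p = 0.0792).

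Among the genes of the anaphase-promoting complex and separase, Cdc20 and the protease Espl1, or separase, rose. Cdc20 had 12.9 and 16.8 CPM with shTet2 and 3.12, 2.92, 4.18, 5.48 and 5.07 CPM in the controls (log2 fold change 1.76, SE 0.23, adjusted p = 0.00418). With the libraries thinned to equal counts Cdc20 was 1.61 higher and no longer passed (adjusted p = 0.108). Ube2c, the ubiquitin-conjugating enzyme of the complex, did not pass at 1.74 with SE 0.41, and neither did its inhibitor Fbxo5, or EMI1, at 0.68 with SE 0.28. Of the exon bases of Ube2c 22.8% are shared with Tnnc2 on the opposite strand, and since counting used no strand, reads from the 2 genes cannot be told apart there.

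Of the 8 spindle assembly genes 7 rose, all but Ckap2l. Tpx2, which activates Aurora A and nucleates microtubules, had 20.7 and 39.6 CPM with shTet2 and 8.39, 5.48, 6.28, 9.26 and 8.54 CPM in the controls (log2 fold change 1.94, SE 0.24, adjusted p = 0.00488). Aspm had 32.3 and 39.5 CPM with shTet2 and 14.6, 6.94, 10.3, 13.2 and 14.9 CPM in the controls (log2 fold change 1.53, SE 0.20, adjusted p = 0.00502). At 0.523 times the WT mean, Aspm in shTet2 lymphoma came nearer to its GC level than any of the 52 genes but Anln. Ckap2, a microtubule-associated protein, had 4.82 and 8.61 CPM with shTet2 and 0.9753, 0.730, 1.82, 1.44 and 2.0 CPM in the controls, with no overlap.

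In GC B cells Tpx2, Aspm and Ckap2 overlapped between the genotypes. Tpx2 had 235, 204, 230.3 and 186 CPM in KO and 199.5, 226 and 187 CPM in WT, and Aspm had 74.6, 85.7, 68.9 and 67.1 CPM in KO and 69.3, 79.3 and 57.5 CPM in WT. Ckap2 had 47.3, 35.1, 40.0 and 34.3 CPM in KO and 42.0, 41.2 and 37.2 CPM in WT. Gtse1, a microtubule-associated protein of the same list, had 64.9, 64.3, 60.0 and 59.6 CPM in KO and 53.4, 55.3 and 48.9 CPM in WT. Every KO library of Gtse1 lay above WT, at a log2 fold change of 0.19 with SE 0.08, which did not pass (edgeR adjusted p = 0.195).

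All 6 cytokinesis genes rose. Cep55 had 12.2 and 14.5 CPM with shTet2 and 2.73, 2.56, 2.82, 3.13 and 5.34 CPM in the controls (log2 fold change 1.96, SE 0.26, adjusted p = 0.00418). Prc1, which bundles the microtubules of the central spindle, had 28.0 and 44.9 CPM with shTet2 and 14.4, 10.2, 10.5, 13.8 and 14.8 CPM in the controls (log2 fold change 1.48, SE 0.19, adjusted p = 0.00418). Ect2, the exchange factor that activates RhoA at the cleavage furrow, had 16.7 and 20.6 CPM with shTet2 and 7.61, 4.02, 7.0, 6.78 and 8.54 CPM in the controls (log2 fold change 1.39, SE 0.20, adjusted p = 0.0063). The groups did not overlap in any of the 6. Cit had 25.7 and 29.0 CPM with shTet2 and 11.7, 3.29, 7.18, 10.6 and 9.61 CPM in the controls, and Anln and Racgap1 made up the group.

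Among the remaining 4 genes Top2a, Cdca2 and Cdca3 rose. Top2a had 143 and 293 CPM with shTet2 and 62.6, 43.1, 43.9, 70.6 and 73.3 CPM in the controls (log2 fold change 1.86, SE 0.32, adjusted p = 0.04). Cdca2, a subunit that brings protein phosphatase 1 to chromosomes, had 17.7 and 28.1 CPM with shTet2 and 7.41, 4.75, 5.55, 8.22 and 9.21 CPM in the controls (log2 fold change 1.65, SE 0.23, adjusted p = 0.0055). Mki67 had 410 and 611 CPM with shTet2 and 108, 66.5, 82.9, 149 and 182 CPM in the controls, and at 2.09 with SE 0.39 it did not pass (adjusted p = 0.0642). Its groups did not overlap, and control replicates 4 and 5 were the highest of the controls.

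The 25 genes that rose and are not among the 14 with the smallest p had log2 fold changes from 1.14 for Aurka to 2.3 for Ttk. The 13 that did not pass were Ube2c, Mki67, Spc25, Birc5, Cdc25c, Ckap2l, Spc24, Mad2l1, Zwilch, Ndc80, Fbxo5, Cenpa and Cdc25b, all with a positive value. The 2 shTet2 libraries also differed from each other: all 52 genes were higher in replicate 2 than in replicate 1. Among the controls 50 genes were above the group mean in replicate 5 and 45 in replicate 4, against 3 in replicate 2 and 6 in replicate 3.

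The effect in lymphoma was then compared with the effect in GC B cells in 1 model of all 14 libraries. Cell kind, kind of Tet2 change (knock-out or hairpin) and count table all differ between the 2 effects and cannot be told apart. The difference between the 2 effects, lymphoma minus GC, was positive in all 52 genes and passed the test in 46, where 4.99% of 15441 genes passed, 3.39% in that direction and 1.61% in the other, in which none of the 52 passed. The median difference was 1.60 on the log2 scale, beside -0.01 over all genes. Without shTet2 replicate 2 the median difference was 1.23, with 50 of the 52 differences positive. With 1 GC or control library left out at a time the count of 46 ran from 39 to 47. Over all genes the 523 called as higher then became 337 to 497. The 6 genes that did not pass were Mad2l1, Ndc80, Fbxo5, Zwilch, Cenpa and Cdc25b. Ube2c, Mki67, Spc25, Birc5, Cdc25c, Ckap2l and Spc24 passed here, although they passed in neither separate fit. In the 14-library model the lymphoma effect alone passed in 49 of the 52 genes, against 39 in the separate fit. The SE of Plk1 was 0.20 for the difference and 0.25 for the separate lymphoma fit. The counts of 46 and 39 thus come from different fits.

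The smallest p was that of Plk1, at a difference of 1.92 with SE 0.20 (edgeR adjusted p = 3.61e-05), followed by Cep55 at 1.86 (SE 0.21, adjusted p = 7.4e-05) and Cdc20 at 1.55 (SE 0.19, adjusted p = 0.000114). In GC B cells Cep55 had 106, 102, 106 and 101 CPM in KO and 102, 103 and 85.2 CPM in WT. Cenpe differed by 1.51 (SE 0.19, adjusted p = 0.000143), Aurkb by 1.60 (SE 0.22, adjusted p = 0.000288) and Ccnb2 by 1.61 (SE 0.23, adjusted p = 0.00043). Cenpe had 164, 182, 177 and 151 CPM in KO and 168, 173 and 122 CPM in WT GC B cells, and WT replicate 4 was the lowest. Ccnb2 had 191, 151, 172 and 149 CPM in KO and 158, 158 and 151 CPM in WT, so neither gene separated by genotype there.

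Ttk had the largest difference among the 14 genes with the smallest p, at 2.45 with SE 0.36 (adjusted p = 0.00094), and in GC B cells it had 38.2, 33.3, 32.1 and 27.2 CPM in KO and 35.5, 41.4 and 32.4 CPM in WT. Ckap2 differed by 2.13 (SE 0.31, adjusted p = 0.000488) and Melk by 2.06 (SE 0.30, adjusted p = 0.000545). Melk and Ttk rose in lymphoma and had negative values in GC B cells that did not pass. These were -0.31 and -0.21 (edgeR adjusted p = 0.0991 and 0.341). Of the 52 genes 18 had negative values in GC B cells. Cenpf differed by 1.68 (SE 0.23, adjusted p = 0.000522), Cdca2 by 1.62 (SE 0.24, adjusted p = 0.000622) and Mybl2 by 1.58 (SE 0.24, adjusted p = 0.000711).

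Tpx2 differed by 1.88 (SE 0.27, adjusted p = 0.000769) and Kntc1 by 1.77 (SE 0.27, adjusted p = 0.000945). Kntc1 had 68.8, 88.2, 77.2 and 77.7 CPM in KO and 63.3, 75.1 and 62.0 CPM in WT GC B cells. Prc1, Ect2 and Cdca2, which rose in lymphoma, overlapped between the genotypes: Prc1 had 146, 136, 119.9 and 115 CPM in KO and 118, 117 and 99.9 CPM in WT. Ect2 had 43.0, 48.1, 44.7 and 43.8 CPM in KO and 43.5, 47.6 and 30.6 CPM in WT, and Cdca2 had 99.2, 103, 95.6 and 87.1 CPM in KO and 96.5, 103 and 81.8 CPM in WT.

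The other genes of the pathway were read from a list of 98 genes of the same process, of which 97 were tested. In GC B cells 0 passed edgeR's test, with 14 at an unadjusted p under 0.05 (14.4%, beside 19.9% of all genes tested), 1 called by DESeq2 and a median log2 fold change of 0.06. In lymphoma 18 (18.6%) rose with shTet2 and 0 fell, beside 1.84% of all genes tested that were higher and 0.742% that were lower. The median of the 97 was 0.40. Among the 3 with the smallest p were the kinetochore scaffold Casc5 at 1.26 (SE 0.17, adjusted p = 0.00502) and the centriole gene Stil at 1.81 (SE 0.26, adjusted p = 0.0063). By list 6 of 28 kinetochore genes rose, 2 of 7 checkpoint genes, 1 of 15 anaphase-promoting complex genes, 1 of 8 entry genes, 3 of 18 centrosome and spindle genes, 3 of 6 cytokinesis genes and 2 of 15 genes of the DREAM and MuvB complexes. The anaphase-promoting complex list also held the activator Fzr1, the securin Pttg1 and the enzyme Ube2s. Its median of 0.06 lay near the median of all genes, and the gene of it that rose was Anapc5 at 0.54 (SE 0.10, edgeR adjusted p = 0.019). The count of 18 was 4 without control replicate 1 or 3, 7 without control replicate 2 and 11 without control replicate 4. Over all genes the 235 called as higher became 97, 120, 82 and 148 without control replicates 1, 2, 3 and 4. The count of 18 also rests on 2 shTet2 libraries.

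The difference between the effects passed the test in 24 of the 97 genes (24.7%), all positive. Over all genes 3.39% passed in that direction and 1.61% in the other. The median of the 97 was 0.37. Among the 3 with the smallest p were Ccnf, or cyclin F, at 1.35 (SE 0.19, adjusted p = 0.000424) and Stil at 1.60 (SE 0.23, adjusted p = 0.000456). The count of 24 rests on 2 shTet2 libraries. It rose without shTet2 replicate 1 and fell without shTet2 replicate 2, as did the count over all genes. Against WT GC B cells, 87 of the 97 (89.7%) were lower in control lymphoma and 5 (5.15%) higher, with a median of -2.19. Over all genes 40.4% were lower and 40.2% higher. The smallest p were those of Ccnf at -3.80 (SE 0.13, adjusted p = 1.98e-15), the spindle gene Troap at -5.26 (SE 0.19, adjusted p = 3.57e-15) and the tubulin Tuba1c at -2.94 (SE 0.11, adjusted p = 6.09e-15).

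Many genes of late cell cycle carry a CCAAT box, the binding site of NF-Y, and a cell cycle homology region with the core TTTGAA or TTCGAA, near the start of transcription. Since the 52 genes moved together, these letters were searched on both strands in RefSeq promoters of build GRCm38.p6, from 250 bases before to 50 bases after each start. The table matched 41 of the 52 genes with 45 promoters. CCAAT was present in 75.6% of these promoters and in 37.4% of all 32851 promoters of the same length, and at least 2 copies in 53.3% and 11.7%. TTTGAA was present in 68.9% and 17.9%, TTCGAA in 8.89% and 1.56%, and either in 73.3% and 19.2%. CCAAT together with either core was present in 64.4% and 7.52%. Of the CCAAT matches 69.1% began in the last 100 bases before the start, beside 43.6% over all promoters, and of the matches to either core 75.0% began within 50 bases of the start, beside 25.2%. A match describes letters in the window and does not show binding.

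Promoters of 6 genes are printed 5′ to 3′ on the strand of the gene, with CCAAT (or ATTGG, its reverse), TTTGAA and TTCGAA in capitals. Plk1, Ccnb2, Cdc20 and Cenpe are shown as genes that rose with shTet2, and Cenpa and Cdc25b as the genes with the smallest changes there. The windows are chr7:122159185-122159484 on the plus strand for Plk1, chr9:70421505-70421804 on the minus strand for Ccnb2, chr4:118437294-118437593 on the minus strand for Cdc20, chr3:135212313-135212612 on the plus strand for Cenpe, chr5:30666636-30666935 on the plus strand for Cenpa and chr2:131186698-131186997 on the plus strand for Cdc25b.
Plk1: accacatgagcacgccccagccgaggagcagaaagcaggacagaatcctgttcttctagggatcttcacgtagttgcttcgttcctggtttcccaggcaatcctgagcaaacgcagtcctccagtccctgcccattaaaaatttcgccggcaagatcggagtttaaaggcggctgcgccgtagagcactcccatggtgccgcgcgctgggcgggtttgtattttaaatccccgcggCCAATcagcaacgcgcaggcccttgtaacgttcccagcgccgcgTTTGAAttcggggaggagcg
Ccnb2: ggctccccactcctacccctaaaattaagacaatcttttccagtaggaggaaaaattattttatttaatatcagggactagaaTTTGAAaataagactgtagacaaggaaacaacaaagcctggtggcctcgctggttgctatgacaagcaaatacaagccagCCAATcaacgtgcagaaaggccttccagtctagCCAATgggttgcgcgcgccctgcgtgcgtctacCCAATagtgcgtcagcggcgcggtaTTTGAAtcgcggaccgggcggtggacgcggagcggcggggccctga
Cdc20: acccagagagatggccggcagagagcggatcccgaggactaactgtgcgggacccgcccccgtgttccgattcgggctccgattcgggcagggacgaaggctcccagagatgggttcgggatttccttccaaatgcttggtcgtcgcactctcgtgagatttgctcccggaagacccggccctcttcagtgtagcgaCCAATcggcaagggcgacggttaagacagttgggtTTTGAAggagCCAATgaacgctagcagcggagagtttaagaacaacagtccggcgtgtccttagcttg
Cenpe: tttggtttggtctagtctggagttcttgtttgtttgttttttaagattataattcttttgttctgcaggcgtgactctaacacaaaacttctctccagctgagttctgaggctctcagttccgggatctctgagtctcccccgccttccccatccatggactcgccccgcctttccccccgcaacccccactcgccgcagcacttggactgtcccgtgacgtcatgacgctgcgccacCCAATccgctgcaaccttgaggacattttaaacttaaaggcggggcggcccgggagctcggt
Cenpa: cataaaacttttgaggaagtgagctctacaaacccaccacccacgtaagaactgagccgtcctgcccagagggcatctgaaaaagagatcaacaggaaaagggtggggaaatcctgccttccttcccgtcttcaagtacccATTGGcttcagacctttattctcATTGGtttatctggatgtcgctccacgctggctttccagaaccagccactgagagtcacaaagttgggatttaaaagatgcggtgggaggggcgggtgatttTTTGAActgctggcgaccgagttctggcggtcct
Cdc25b: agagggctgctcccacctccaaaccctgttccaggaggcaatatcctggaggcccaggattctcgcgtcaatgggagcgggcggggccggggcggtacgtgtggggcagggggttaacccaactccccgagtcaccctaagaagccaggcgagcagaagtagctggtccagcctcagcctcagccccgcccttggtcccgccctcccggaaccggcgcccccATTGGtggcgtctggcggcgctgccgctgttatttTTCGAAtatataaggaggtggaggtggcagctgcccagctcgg

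Plk1 has 1 CCAAT and 1 TTTGAA in the window, Ccnb2 has 3 and 2, Cdc20 has 2 and 1, and Cenpe has 1 CCAAT and no core in these letters. Cenpa, with the smallest change in lymphoma, has 2 CCAAT and 1 TTTGAA, and Cdc25b has 1 CCAAT and 1 TTCGAA. These 6 genes were picked for display, and whether the letters go with the change in lymphoma was not tested.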

How the data were processed

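Per the labels' protocols, RNA had been extracted with Trizol and RNeasy columns and sequenced as TruSeq stranded mRNA libraries. Per the submitters' processing notes, STAR 2.3.0e, featureCounts 1.5.1 and build GRCm38.p3 were used. The authors deposited raw read counts, 1 table for GC B cells and 1 for lymphoma, counted over exons of GENCODE vM3 and summed by gene name with no strand or paired-end option, per the file headers. A kit that marks strand counted without it cannot separate antisense genes. Of the 52 genes 10 share exon bases with another row, 8 of them on the opposite strand, at most 22.8% of their length.

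Counts were fitted as deposited with edgeR 4.0.16 in R 4.3.3 (quasi-likelihood test with robust estimation, TMM scaling, filterByExpr by group), with Benjamini-Hochberg adjustment over all genes tested and a threshold of 0.05. GC and lymphoma were fitted separately; the difference of effects and the comparison of cell kinds used 1 model of 14 libraries. The model was tested on simulated data. Alternatives used DESeq2 1.42.0, limma 3.58.1, other scalings and filters, single libraries left out and, chosen after seeing the data, thinned lymphoma libraries. No 2 libraries of a group agreed within sampling noise, with a chi-square per degree of freedom of at least 2.08. Values were named by rule: genes that passed, up to the 14 with the smallest p, or the 6 with the smallest p where fewer than 6 passed, and 10 further genes. Some values that this rule covers are not reported here. The members and all lists were chosen with earlier results of these data known. Figures were drawn with Python 3 and matplotlib.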

Additional observations from a re-analysis of the deposited data

Results flagged for a closer look

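The effect of the Tet2 label on the mitotic genes differed between lymphoma and GC B cells by the interaction term of the 14-library model in 46 of the 52 genes. Cell kind, kind of Tet2 change (knock-out or hairpin) and count table cannot be told apart in this term. Among the 14 with the smallest p, the difference on the log2 scale, lymphoma minus GC, was 1.92 for Plk1, 1.86 for Cep55, 1.55 for Cdc20, 1.51 for Cenpe, 1.60 for Aurkb, 1.61 for Ccnb2, 2.13 for Ckap2, 1.68 for Cenpf, 2.06 for Melk, 1.62 for Cdca2, 1.58 for Mybl2, 1.88 for Tpx2, 2.45 for Ttk and 1.77 for Kntc1.

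Single libraries lay far from the others of their group in 3 of 106 sets of values, where chance gives about 1 in 20. Pbk, a mitotic kinase, was highest in KO replicate 2 at 44.7 CPM, Foxm1 in KO replicate 3 at 146.5 CPM, and Cep55 in control replicate 5 at 5.34 CPM.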

How the results depend on the processing

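In GC B cells, against 0 genes called among the 52, DESeq2 gave 1 higher, and no filter gave 2 higher and 1 lower. Leaving out each replicate gave 0 to 1 higher and 0 to 1 lower, the other settings 0. Companion genes, with 0 higher, gave 1 under RLE scaling, DESeq2 and no filter. In lymphoma the 39 genes became 22 to 49 with each replicate left out, and the 18 companions 4 to 39, with 0 to 1 lower. The companions were 34 with no filter, 42 in 1 model of all 14 libraries and 11 with thinned libraries. All genes called as higher were 521, 662 and 194 in these settings. The 46 genes whose effects differed became 30 to 50 with each replicate left out, and the 24 companions 8 to 39, with 0 to 1 lower, and 14 under limma-voom. In control lymphoma against WT all 52 genes stayed lower under every setting run, and the 5 companions that were higher became 8 under RLE scaling, 9 under upper-quartile scaling and 8 under DESeq2. The summed level of 0.0747 times WT became 0.0990 under upper-quartile scaling.

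With the replicate number as a block, 0 of the 52 genes passed in lymphoma, although 47 had an unadjusted p under 0.05, and 1 companion passed. Of all 12797 genes tested there, only 3 passed as higher and 1 as lower. Under the replicate block the difference of effects passed in 27 of the 52 genes and 8 companions. Of all 15441 genes 189 passed as higher and 67 as lower. In GC B cells 0 of the 52 passed under the block, beside 217 higher and 353 lower among 13600 genes. Same-numbered libraries did not deviate together (correlations of 0.040 and -0.048 in GC and -0.077 and -0.010 in lymphoma, 2 pairs each), and no label says that a number marks a shared animal or batch. The block could not be fitted for control lymphoma against WT, where numbers belong to 1 cell kind each. Control replicate 2 had 958 counts over the 52 genes.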
